A study of Mus musculus with 8 samples.

Results

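The genes described here are 10 growth-arrest and stress genes, followed through 4 activation states of mouse macrophages: the sestrin genes Sesn1 and Sesn3, the GADD45 genes Gadd45a, Gadd45b and Gadd45g, the cyclin-dependent kinase inhibitor genes Cdkn1a and Cdkn1b, the antiproliferative genes Btg1 and Btg2, and Pdcd4. A gene was measured where a probe set carried exactly 1 gene symbol in the platform annotation, and the probe set with the highest mean over the 8 arrays stood for it. The probe sets were thus selected on their mean signal, and the genes themselves by name. That left 9 of the 10 genes, out of 19938 named genes in all. The only probe set that listed Cdkn1a also listed 4930567H12Rik, so no value is given for Cdkn1a. The mean signal decided between probe sets for Cdkn1b alone, which had 2. The list was drawn up with earlier results in view. Among them was that Sesn1 and Pdcd4 were among the genes with the largest falls under both treatments with LPS. Their falls in those treatments, against untreated cells or against cells given IL-4/IL-13, are thus described without a test. Their changes under IL-4/IL-13 alone, and between the treatments with LPS, were tested. These changes rest on the same untreated arrays or on the same arrays with LPS.

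The cells were bone marrow-derived macrophages (BMDMs), phagocytes grown in culture from mouse bone marrow, and their total RNA was hybridised to Affymetrix mouse gene arrays after 6 h. Each of 4 groups had 2 arrays: untreated cells, cells given IFN-gamma with LPS (lipopolysaccharide from bacteria, the ligand of Toll-like receptor 4), cells given IL-4 with IL-13, and cells given LPS, IL-4 and IL-13 together. The stated purpose was to find the activation state and signature of each treatment. The labels give no strain, sex, age or dose, and it is not said whether both arrays of a group stem from different animals or cultures. The spread behind the p-values is that between these 2 samples and may be technical. Neither LPS nor IFN-gamma was given singly, so the treatments with LPS differ from each other in IFN-gamma as well as in the type 2 cytokines.

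Values are the authors' deposited log2 signals, in which a step of 1 is a doubling, and they had array medians between 6.12 and 6.2. All 10 macrophage markers measured, such as Csf1r and Adgre1, lay above the median of all genes in untreated cells, while 0 of 4 T lymphocyte, 0 of 4 erythroid, 0 of 5 dendritic cell and 0 of 5 mast cell markers did. Of the B lymphocyte markers 1 of 4 did, of the neutrophil markers 2 of 5 and of the fibroblast markers 3 of 5. The summed unlogged signal of the 5 mast cell markers ranged from 182 to 190 in untreated cells and from 809 to 985 under IFN-gamma/LPS. It ranged from 256 to 280 under IL-4/IL-13 and from 1460 to 1519 under LPS/IL-4/IL-13. Hdc, the histidine decarboxylase gene, rose with each treatment (log2 3.65 ± 0.13, 1.21 ± 0.13 and 4.51 ± 0.13 in that order). Of the other 4 mast cell markers only Kit passed the threshold given below, under IFN-gamma/LPS alone (0.39 ± 0.14). The summed signal of the 5 dendritic cell markers was 216 to 227 in untreated cells, 474 to 521, 256 to 264 and 312 to 350 in the same order. Clec9a rose under IFN-gamma/LPS (1.69 ± 0.14) and LPS/IL-4/IL-13 (1.83 ± 0.14). Xcr1 (2.25 ± 0.14) and Zbtb46 (0.39 ± 0.12) rose under IFN-gamma/LPS only, and Flt3 and Siglech did not pass with any treatment. The 10 macrophage markers summed to 47776 to 48403 in untreated cells and 40091 to 40616 under IFN-gamma/LPS. They summed to 42332 to 42481 under IL-4/IL-13 and 42170 to 43492 under LPS/IL-4/IL-13. Under IFN-gamma/LPS 7 of them fell and 2 rose (Fcgr1 and Mertk), beside 28.4% and 23.6% of all genes. Under LPS/IL-4/IL-13 6 fell and 2 rose (Fcgr1 and Cd14), beside 25.4% and 20.3%. Under IL-4/IL-13 5 fell and 0 rose, beside 12.3% and 7.83%. The part of these markers in the results below was not tested. In bulk RNA, fewer cells of a type and less RNA per cell cannot be told apart. A gene is said to have risen or fallen where its limma p was under 0.05 after Benjamini-Hochberg adjustment across all 19938 genes, and each fold change has n = 2 arrays per group.

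Sestrins are stress-induced proteins that restrain the growth kinase complex mTORC1, partly by sensing leucine through the GATOR2 complex, and they support antioxidant defence. Sesn1 is known as a p53 target and Sesn3 as a target of FoxO transcription factors. GADD45 proteins are small stress-response proteins that bind cell cycle kinases and the kinase MAP3K4 upstream of p38 and JNK. Gadd45a is a classical p53 target, and Gadd45b is induced by NF-kB and protects cells from TNF-driven death. Cdkn1b encodes p27, which binds cyclin-CDK complexes in resting cells. Btg1 and Btg2 proteins recruit the CCR4-NOT deadenylase to messenger RNAs. Pdcd4 protein blocks the RNA helicase eIF4A in translation initiation. It is degraded after phosphorylation by S6 kinase, and its messenger RNA is a well-known target of miR-21.

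The promoters of the 3 GADD45 genes are shown because these close relatives had different response patterns, and those of Btg1 and Btg2 because this pair was called in the same direction in 4 of the 6 comparisons. Each is the 250 bases before the annotated start in RefSeq, assembly GRCm38.p6, written 5′ to 3′ on the gene's own strand. They are Gadd45a at chr6:67037408-67037657 (minus strand), Gadd45b at chr10:80929841-80930090 (plus), Gadd45g at chr13:51846425-51846674 (plus), Btg1 at chr10:96616751-96617000 (plus) and Btg2 at chr1:134079156-134079405 (minus). Capitals mark every match to 1 of the 10 motifs searched on both strands.
Gadd45a: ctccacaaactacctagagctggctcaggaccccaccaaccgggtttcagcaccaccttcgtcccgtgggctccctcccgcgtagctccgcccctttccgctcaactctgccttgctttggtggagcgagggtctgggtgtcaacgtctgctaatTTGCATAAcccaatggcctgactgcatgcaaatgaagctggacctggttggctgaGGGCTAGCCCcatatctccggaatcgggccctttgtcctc
Gadd45b: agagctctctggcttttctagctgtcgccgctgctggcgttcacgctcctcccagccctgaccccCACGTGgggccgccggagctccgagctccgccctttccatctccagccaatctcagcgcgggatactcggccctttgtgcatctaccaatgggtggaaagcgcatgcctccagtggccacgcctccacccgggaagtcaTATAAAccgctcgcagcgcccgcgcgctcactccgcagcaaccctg
Gadd45g: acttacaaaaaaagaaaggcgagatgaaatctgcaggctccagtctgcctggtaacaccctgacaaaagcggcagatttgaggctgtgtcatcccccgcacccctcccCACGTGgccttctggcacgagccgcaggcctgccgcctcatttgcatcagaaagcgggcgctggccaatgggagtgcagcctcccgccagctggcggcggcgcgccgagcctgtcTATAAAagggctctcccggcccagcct
Btg1: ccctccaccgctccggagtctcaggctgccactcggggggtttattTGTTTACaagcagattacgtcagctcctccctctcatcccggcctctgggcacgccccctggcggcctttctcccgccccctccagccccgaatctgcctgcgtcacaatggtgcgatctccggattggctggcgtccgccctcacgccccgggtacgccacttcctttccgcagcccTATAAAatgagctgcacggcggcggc
Btg2: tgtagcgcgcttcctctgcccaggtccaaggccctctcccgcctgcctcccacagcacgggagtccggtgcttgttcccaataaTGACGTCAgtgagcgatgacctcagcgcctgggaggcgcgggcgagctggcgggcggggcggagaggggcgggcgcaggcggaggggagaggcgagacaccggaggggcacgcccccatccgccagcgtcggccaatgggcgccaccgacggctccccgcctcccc

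The GADD45 promoters held different matches. Gadd45a had a C/EBP-type match (TTGCNNAA) that began 95 bases before the start and a p53 decamer (1 of the 2 repeats of a full p53 site) at 40 bases. Gadd45b and Gadd45g each had an E-box (CACGTG) and a TATA motif (TATAAA), the E-boxes at 185 and 142 bases and the TATA motifs at 46 and 27 bases before the start. In Btg1 a FoxO match (GTAAACA) lay at 204 bases, on the opposite strand, and a TATA motif at 26 bases, and Btg2 had a cyclic AMP response element (TGACGTCA) at 166 bases. Of 32851 promoters of that length, 9.56% held the C/EBP-type motif, 7.13% the p53 decamer, 6.02% the E-box, 12.4% the TATA motif, 3.17% the FoxO motif and 1.55% the cyclic AMP response element. The NF-kB motif (7.25% of all promoters), the AP-1 motif TGANTCA (6.75%) and the STAT6 motif TTCNNNNGAA (5.85%) had no match in any of the 11 promoter entries of the 9 genes. The GAS motif TTCNNNGAA, in 7.02% of all promoters, had 1 match, 71 bases before the first annotated start of Pdcd4. A p53 decamer lay 173 bases before the second annotated start of Sesn1. A match is a run of letters and not a measured binding site, and no match says only that these letters were not in this window.

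The 3 GADD45 genes differed in which treatments changed them. Gadd45b rose with both treatments that held LPS, Gadd45g rose with both but more with LPS/IL-4/IL-13, and Gadd45a rose with LPS/IL-4/IL-13 and fell with IL-4/IL-13. The untreated arrays read 7.23 and 7.17 for Gadd45a, those with IFN-gamma/LPS 7.13 and 6.89, those with IL-4/IL-13 6.37 and 6.26, and those with LPS/IL-4/IL-13 10.19 and 9.72. Only the LPS/IL-4/IL-13 arrays lay above the untreated ones, and no array of another group came within 2 log2 units of them. Against untreated cells Gadd45a was 6.75-fold higher under LPS/IL-4/IL-13 (log2 2.76 ± 0.14 SE, limma adjusted p = 1.16e-08). It fell with IL-4/IL-13 (-0.89 ± 0.14, limma adjusted p = 0.000959). With IFN-gamma/LPS the difference was -0.19 ± 0.14 (limma adjusted p = 0.287), and it was 0.02 after quantile normalization.

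The treatments with LPS were far apart in Gadd45a. It was 7.7-fold higher under LPS/IL-4/IL-13 than under IFN-gamma/LPS (2.95 ± 0.14, limma adjusted p = 4.74e-08), the 14th largest rise of the 19938 genes in that comparison. Set against IL-4/IL-13, the same group was 12.5-fold higher (3.64 ± 0.14, limma adjusted p = 1.21e-09), rank 98 from the top. IFN-gamma/LPS stood above IL-4/IL-13 by 0.70 ± 0.14 (limma adjusted p = 0.00162). The order of levels was thus LPS/IL-4/IL-13, untreated, IFN-gamma/LPS and IL-4/IL-13, in which the difference between untreated and IFN-gamma/LPS did not pass.

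Gadd45b read 8.09 and 7.97 in untreated cells, 11.92 and 11.99 with IFN-gamma/LPS, 8.41 and 8.40 with IL-4/IL-13, and 11.82 and 11.76 with LPS/IL-4/IL-13. The 4 arrays with LPS lay more than 3 log2 units above the other 4. The gene rose 15.2-fold under IFN-gamma/LPS (3.93 ± 0.08, limma adjusted p = 3.32e-12) and 13.5-fold under LPS/IL-4/IL-13 (3.76 ± 0.08, limma adjusted p = 4.75e-12). The difference between these treatments was -0.17 ± 0.08 (limma adjusted p = 0.187), although their arrays did not overlap. IL-4/IL-13 alone raised it by 0.38 ± 0.08 (limma adjusted p = 0.00438), a call that was lost without untreated array 2 (limma adjusted p = 0.062).

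Gadd45g stood between its relatives. Its untreated arrays read 6.19 and 6.26, those with IFN-gamma/LPS 7.61 and 7.49, those with IL-4/IL-13 6.05 and 5.86, and those with LPS/IL-4/IL-13 9.00 and 9.05. No array of 1 group overlapped with those of another. It rose 2.51-fold with IFN-gamma/LPS (1.33 ± 0.11, limma adjusted p = 4.1e-07) and 6.96-fold with LPS/IL-4/IL-13 (2.80 ± 0.11, limma adjusted p = 6.33e-10). The combination was 2.78-fold above IFN-gamma/LPS (1.48 ± 0.11, limma adjusted p = 9.51e-07), rank 133 of 19938 from the top, and 3.07 ± 0.11 above IL-4/IL-13 (limma adjusted p = 3.79e-10). With IL-4/IL-13 alone it differed from untreated cells by -0.27 ± 0.11 (limma adjusted p = 0.0963).

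**Figure D1:**
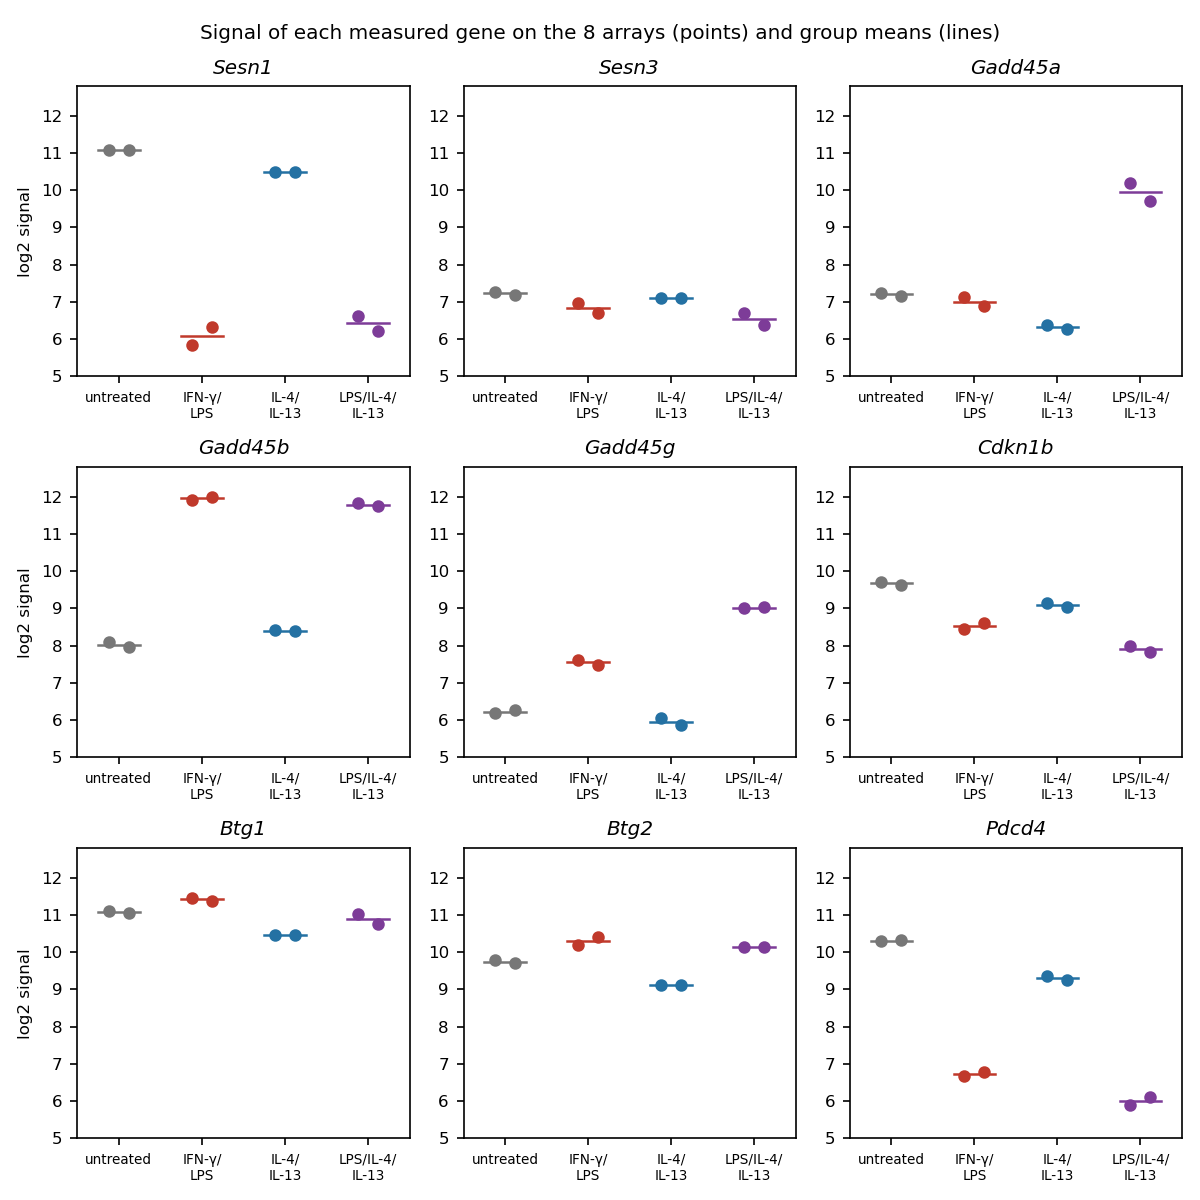
Log2 signal (vertical axis, the same range in every panel) of the 9 measured genes on each of the 8 arrays, with 2 points per group and a line at the group mean. Sesn1 and Pdcd4 are low on all 4 arrays with LPS, Gadd45b is high on them, and Gadd45a is high only on the 2 arrays with LPS/IL-4/IL-13 (10.19 and 9.72).

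Sesn1 was bright in cells without LPS and dim in cells with it. It read 11.09 on both untreated arrays, 5.84 and 6.33 with IFN-gamma/LPS, 10.49 and 10.48 with IL-4/IL-13, and 6.61 and 6.23 with LPS/IL-4/IL-13. The 4 arrays with LPS lay more than 3 log2 units below the other 4, and the arrays of the 2 treatments with LPS overlapped. Against untreated cells its level was 32.1-fold lower under IFN-gamma/LPS (log2 -5.01 ± 0.15), the lowest fold change of all named genes, and 25.5-fold lower under LPS/IL-4/IL-13 (-4.67 ± 0.15), the third lowest. Compared with cells given IL-4/IL-13, the change was -4.07 ± 0.15 in LPS/IL-4/IL-13 and -4.40 ± 0.15 in IFN-gamma/LPS, from the same 4 low arrays. The treatments with LPS differed by 0.34 ± 0.15 (limma adjusted p = 0.18), and the difference passed without IFN-gamma/LPS array 2 (0.58, limma adjusted p = 0.0152) or without LPS/IL-4/IL-13 array 2 (0.53, limma adjusted p = 0.0301).

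IL-4/IL-13 alone lowered Sesn1 by a smaller amount. The change was -0.61 ± 0.15 (limma adjusted p = 0.016), although the pairs of arrays differed by 0.01 or less within the groups, because the SE is shared with the arrays with LPS. The call was lost without untreated array 1 (limma adjusted p = 0.111), untreated array 2 (0.0921), IL-4/IL-13 array 1 (0.0828) or IL-4/IL-13 array 2 (0.107), and also when all 35556 probe sets were tested together (0.0728). The size of the change lay between -0.66 and -0.58 in all alternatives.

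Sesn3 changed far less. The untreated arrays read 7.27 and 7.19, those with IFN-gamma/LPS 6.96 and 6.71, those with IL-4/IL-13 7.11 and 7.10, and those with LPS/IL-4/IL-13 6.70 and 6.37. It fell with LPS/IL-4/IL-13 against untreated cells (-0.70 ± 0.13, limma adjusted p = 0.000737) and against IL-4/IL-13 (-0.57 ± 0.13, limma adjusted p = 0.00343). Under IFN-gamma/LPS it fell by 0.40 ± 0.13 on the log2 scale (limma adjusted p = 0.0226), a call that was lost after quantile normalization (0.235), when all probe sets were tested (0.0578) and without untreated array 1 (0.13), untreated array 2 (0.0614) or IFN-gamma/LPS array 2 (0.164). The difference between IL-4/IL-13 and untreated cells was -0.13 ± 0.13 (limma adjusted p = 0.522). In the order untreated, IL-4/IL-13, IFN-gamma/LPS and LPS/IL-4/IL-13, no neighbouring levels differed past the threshold. Without LPS/IL-4/IL-13 array 1 the last pair did (-0.47, limma adjusted p = 0.0309). The third sestrin gene, Sesn2, which is an ATF4 target, fell under IFN-gamma/LPS (-1.09 ± 0.10, limma adjusted p = 1.53e-06) and LPS/IL-4/IL-13 (-0.64 ± 0.10, limma adjusted p = 0.000191), and was at -0.03 ± 0.10 under IL-4/IL-13 (limma adjusted p = 0.879).

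Pdcd4 followed Sesn1 in direction, with a further step down in the combination. On the arrays with LPS both genes read between 5.84 and 6.77, near the array medians of 6.12 to 6.2. How far background signal limits the falls and the step at that level was not tested. It read 10.30 and 10.32 in untreated cells, 6.67 and 6.77 with IFN-gamma/LPS, 9.36 and 9.26 with IL-4/IL-13, and 5.89 and 6.12 with LPS/IL-4/IL-13. No groups overlapped. The level was 12-fold lower under IFN-gamma/LPS (-3.59 ± 0.10) and 19.8-fold lower under LPS/IL-4/IL-13 (-4.31 ± 0.10) than in untreated cells, ranks 29 and 6 from the bottom of all named genes. With IL-4/IL-13 alone it fell 2-fold (-1 ± 0.10, limma adjusted p = 2.75e-05), the only one of the 9 genes to change that much in that comparison. The combination differed from IL-4/IL-13 by -3.31 ± 0.10 and from IFN-gamma/LPS by -0.72 ± 0.10 (limma adjusted p = 0.000329). Both differences rest on the low arrays behind the listing of Pdcd4. The levels fell from untreated to IL-4/IL-13, IFN-gamma/LPS and the combination. In that order the first and the last pair of neighbours differed past the threshold, and the middle pair is given without a test.

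Cdkn1b had the same order as Pdcd4 over a narrower range. Its untreated arrays read 9.71 and 9.64, those with IFN-gamma/LPS 8.46 and 8.61, those with IL-4/IL-13 9.14 and 9.05, and those with LPS/IL-4/IL-13 7.99 and 7.82, without overlap between groups. The gene fell 2.2-fold with IFN-gamma/LPS (-1.14 ± 0.10, limma adjusted p = 7.46e-07), 3.41-fold with LPS/IL-4/IL-13 (-1.77 ± 0.10, limma adjusted p = 1.69e-08) and 1.49-fold with IL-4/IL-13 (-0.58 ± 0.10, limma adjusted p = 0.00113). LPS/IL-4/IL-13 was below IFN-gamma/LPS by -0.63 ± 0.10 (limma adjusted p = 0.000515). The other Cdkn1b probe set gave -0.76 ± 0.17 under IFN-gamma/LPS (limma p adjusted over all probe sets 0.0106), -0.93 ± 0.17 under LPS/IL-4/IL-13 (0.00459) and -0.44 ± 0.17 under IL-4/IL-13 (0.168). On it the combination and IFN-gamma/LPS differed by -0.17 ± 0.17 (0.684), so the step between the treatments with LPS passed on 1 of the 2 probe sets. Relative to IL-4/IL-13 it gave -0.49 ± 0.17 in the combination (0.0805) and -0.32 ± 0.17 in IFN-gamma/LPS (0.23). Every comparison with IL-4/IL-13, and that between the treatments with LPS, thus passed for Cdkn1b only on the probe set that stood for the gene.

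Btg1 and Btg2 fell with IL-4/IL-13 and rose with IFN-gamma/LPS, by less than 1 log2 unit. Btg1 read 11.10 and 11.05 in untreated cells, 11.47 and 11.37 with IFN-gamma/LPS, 10.45 and 10.47 with IL-4/IL-13, and 11.03 and 10.77 with LPS/IL-4/IL-13. It rose with IFN-gamma/LPS (0.35 ± 0.09, limma adjusted p = 0.00481) and fell with IL-4/IL-13 (-0.62 ± 0.09, limma adjusted p = 0.00027). With the combination it was at -0.18 ± 0.09 against untreated cells (limma adjusted p = 0.115), a difference that passed after quantile normalization (-0.24, limma adjusted p = 0.0296) and without LPS/IL-4/IL-13 array 1 (-0.31, limma adjusted p = 0.00388). Btg2 read 9.78 and 9.71, 10.19 and 10.40, 9.13 and 9.11, and 10.13 and 10.14 in the same order of groups. It rose with IFN-gamma/LPS (0.55 ± 0.09, limma adjusted p = 0.000158) and with LPS/IL-4/IL-13 (0.39 ± 0.09, limma adjusted p = 0.00254), and fell with IL-4/IL-13 (-0.63 ± 0.09, limma adjusted p = 0.00025).

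The pair was also compared between treatments, without a test of one gene against the other. Btg1 was lower under LPS/IL-4/IL-13 than under IFN-gamma/LPS (-0.52 ± 0.09, limma adjusted p = 0.000815), while the Btg2 difference was -0.16 ± 0.09 (limma adjusted p = 0.268). Both were higher under LPS/IL-4/IL-13 than under IL-4/IL-13, Btg1 by 0.44 ± 0.09 (limma adjusted p = 0.00114) and Btg2 by 1.02 ± 0.09 (limma adjusted p = 1.07e-06). IFN-gamma/LPS also stood above IL-4/IL-13, for Btg1 by 0.96 ± 0.09 (limma adjusted p = 1.21e-06) and for Btg2 by 1.18 ± 0.09 (limma adjusted p = 1.98e-07). The lowest group was IL-4/IL-13 for both genes.

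**Figure D2:**
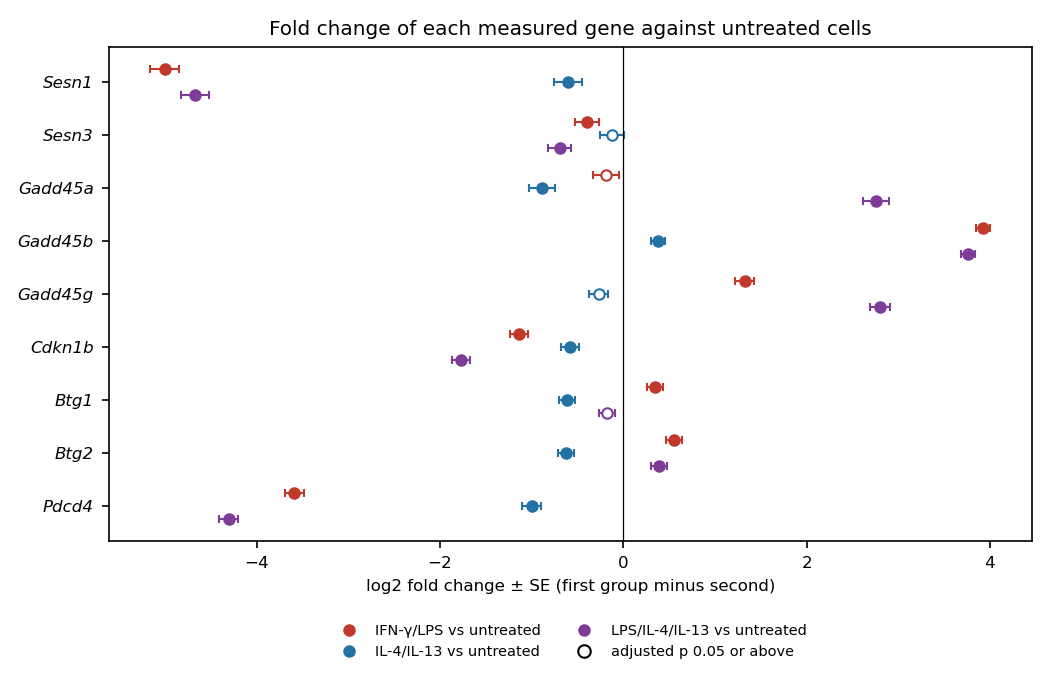
Log2 fold change of the 9 measured genes against untreated cells (horizontal axis, ± SE from limma, n = 2 arrays per group), with open circles where the adjusted p was not under 0.05. Under IL-4/IL-13 the changes lie between -1 (Pdcd4) and 0.38 (Gadd45b), and under both treatments with LPS Sesn1 is the lowest (-5.01 under IFN-gamma/LPS and -4.67 under LPS/IL-4/IL-13) and Gadd45b the highest (3.93 and 3.76).

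Read by treatment, and counting only the 7 genes that were not listed for their falls with LPS, IFN-gamma/LPS raised 4 (Gadd45b, Gadd45g, Btg1 and Btg2) and lowered 2 (Sesn3 and Cdkn1b) against untreated cells, where 51.9% of all named genes were called, 23.6% higher and 28.4% lower. The median log2 fold change of the 7 genes was 0.35, beside 0.105 over all named genes. LPS/IL-4/IL-13 also raised 4 of the 7 (Gadd45a, Gadd45b, Gadd45g and Btg2) and lowered Sesn3 and Cdkn1b, where 45.6% of all genes were called, 20.3% higher and 25.4% lower, and the medians were 0.39 and 0.09. Sesn1 and Pdcd4 were lower in both comparisons, the falls they were listed for, and are left out of these counts. With IL-4/IL-13 alone 4 of the 7 fell (Gadd45a, Cdkn1b, Btg1 and Btg2) and 1 rose (Gadd45b), where 20.2% of all genes were called, 7.83% higher and 12.3% lower. Sesn1 and Pdcd4 fell as well. They are left out here too, because the untreated arrays behind their listing enter this comparison. The medians in that comparison were -0.58 for the 7 genes and 0.07 for all genes. Median centring moved the share of called genes that were higher under IL-4/IL-13 from 38.8% to 28.6%. Fewer of all named genes were called in that comparison when an array of either group was left out. Of the 7 genes only Gadd45b lost its call then, without untreated array 2. All 3 comparisons share the untreated arrays.

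The combination compared with IFN-gamma/LPS gave 2 of the 7 genes higher (Gadd45a and Gadd45g) and 2 lower (Cdkn1b and Btg1). Of all genes 19.7% were called there, 12.1% higher and 7.62% lower. Compared with IL-4/IL-13, the combination gave 5 of the 7 higher (all 3 GADD45 genes, Btg1 and Btg2) and 2 lower (Sesn3 and Cdkn1b), where 36.7% of all genes were called, 14.1% higher and 22.6% lower. For IFN-gamma/LPS compared with IL-4/IL-13 the same 5 of the 7 were higher and Cdkn1b lower, where 41.6% were called, 15.5% higher and 26.1% lower. Sesn1 and Pdcd4 are left out of these counts too, because arrays behind their listing enter each comparison. Sesn3 was at -0.27 ± 0.13 in the last comparison (limma adjusted p = 0.124).

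**Figure D3:**
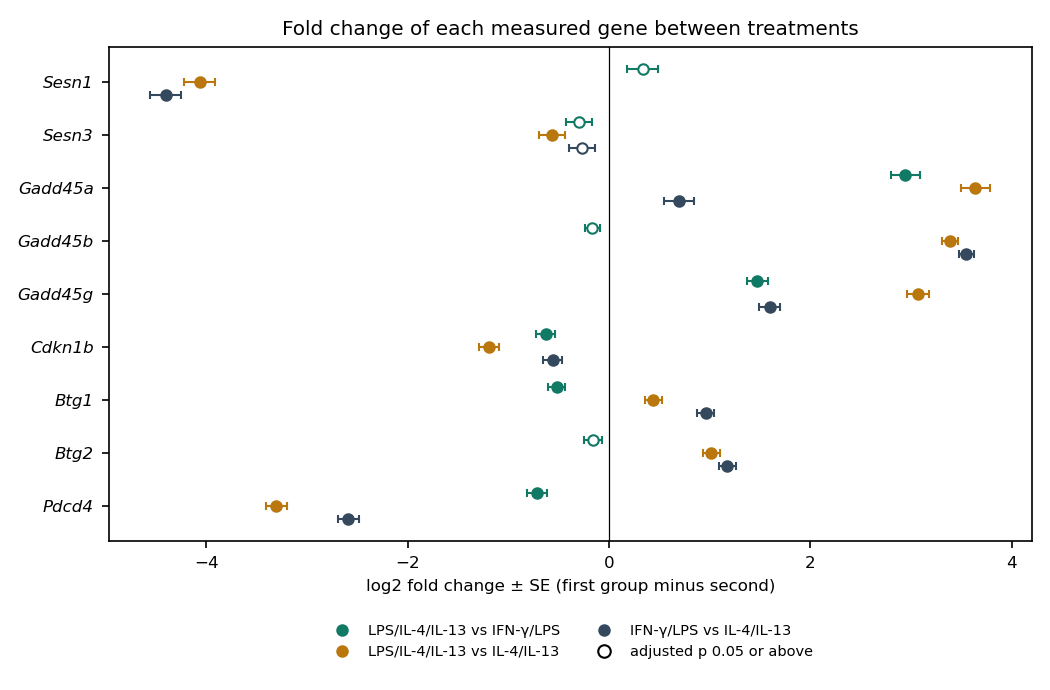
Log2 fold change of the 9 measured genes in the 3 comparisons between treatments (horizontal axis, ± SE from limma, n = 2 arrays per group), with open circles where the adjusted p was not under 0.05. Gadd45a (2.95) and Gadd45g (1.48) stand to the right where the combination is compared with IFN-gamma/LPS, where Gadd45b is at -0.17.

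The spread of the 9 genes over the 4 groups differed widely. The range between the highest and the lowest group mean was 5.01 for Sesn1, 4.31 for Pdcd4, 3.93 for Gadd45b, 3.64 for Gadd45a and 3.07 for Gadd45g, at percentiles 99.7, 99.3, 99.1, 98.8 and 97.9 of all named genes. It was 1.77 for Cdkn1b, 1.18 for Btg2, 0.96 for Btg1 and 0.70 for Sesn3, beside a median of 0.43 over all genes. As a description, the genes whose 3 changes from untreated lay nearest to those of Sesn1 were Rasgrp3, a Ras activator gene (root mean square difference 0.371 over the 3 treated groups), the beta-arrestin gene Arrb1 (0.458) and the peroxisomal transporter gene Abcd2 (0.668). Nearest to Pdcd4 were Kctd12b (0.162), Sh2d1b1 (0.364) and Susd3 (0.405). Nearest to Gadd45b were Mlkl, the necroptosis effector gene (0.105), Glipr2 (0.123) and the IL-2 receptor chain gene Il2ra (0.198).

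The counts of gene lists that follow stand beside the shares of all named genes called higher and lower, which were 23.6% and 28.4% under IFN-gamma/LPS and 20.3% and 25.4% under LPS/IL-4/IL-13. Among the relatives of these genes, Sesn2, the other CDK inhibitors and the other BTG/TOB genes, 3 of 9 measured rose and 4 fell under IFN-gamma/LPS, and 3 rose and 3 fell under LPS/IL-4/IL-13 (1 and 2 without untreated array 1). Among the INK4 inhibitor genes Cdkn2c was at -1.83 ± 0.13 under IFN-gamma/LPS and -1.57 ± 0.13 under LPS/IL-4/IL-13, and Cdkn2d at 0.82 ± 0.10 and 1.55 ± 0.10. Tob1 fell under IFN-gamma/LPS (-0.92 ± 0.11) and LPS/IL-4/IL-13 (-0.36 ± 0.11) and rose under IL-4/IL-13 (0.35 ± 0.11).

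For the p53 pathway and its target genes the counts higher were near the share of all genes. Under IFN-gamma/LPS 7 of 25 measured genes rose and 10 fell, and under LPS/IL-4/IL-13 also 7 rose and 10 fell, where 23.6% and 28.4%, then 20.3% and 25.4%, of all genes did. The medians were -0.005 and -0.1. Fas, the death receptor gene, rose by 3.85 ± 0.10 under IFN-gamma/LPS and 2.93 ± 0.10 under LPS/IL-4/IL-13, and Trp53inp1 fell by 3.55 ± 0.09 and 3.71 ± 0.09 on the log2 scale. Plk3 resembled Gadd45a in separating the treatments with LPS: it was at -0.13 ± 0.12 under IFN-gamma/LPS, rose by 2.06 ± 0.12 under LPS/IL-4/IL-13, and was 2.18 ± 0.12 higher in the second than in the first (limma adjusted p = 1.12e-07). Unlike Gadd45a, which fell, Plk3 rose with IL-4/IL-13 alone (1.06 ± 0.12). Pmaip1, which encodes the BH3-only protein NOXA, was the reverse, at 2.20 ± 0.12 under IFN-gamma/LPS and 0.30 ± 0.12 (limma adjusted p = 0.0625) under LPS/IL-4/IL-13.

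FoxO factors and their target genes mostly fell with LPS. Of 20 measured, 12 fell and 5 rose under IFN-gamma/LPS, where 28.4% and 23.6% of all genes did (median -1.08, all genes 0.105), and 14 fell and 4 rose under LPS/IL-4/IL-13, where 25.4% and 20.3% did (median -1.20, all genes 0.09). The factor gene Foxo3 fell by 2.35 ± 0.13 on the log2 scale under IFN-gamma/LPS and by 2.34 ± 0.13 under LPS/IL-4/IL-13. The pocket protein gene Rbl2 (-2.99 ± 0.14 and -2.99 ± 0.14), the insulin receptor gene Insr (-2.94 ± 0.13 and -2.61 ± 0.13) and the sphingosine phosphate receptor gene S1pr1 (-3.08 ± 0.12 and -3.47 ± 0.12) fell with them. Tnfsf10, the TRAIL gene, rose by 5.73 ± 0.10 and 4.71 ± 0.10. Sod2 (2.70 ± 0.06 and 2.68 ± 0.06) and Bcl6 (1.50 ± 0.07 and 1.15 ± 0.07) rose with both treatments as well.

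In the amino acid sensing branch of mTORC1 and AMPK, on which sestrins act, 15 of 27 genes fell and 2 rose under IFN-gamma/LPS (all genes 28.4% and 23.6%), and 18 fell and 4 rose under LPS/IL-4/IL-13 (all genes 25.4% and 20.3%), with medians of -0.39 and -0.49. The AMPK subunit gene Prkag2 fell by 2.68 ± 0.11 on the log2 scale under IFN-gamma/LPS, the lowest change of the 27, and Castor2, of the CASTOR arginine sensor family, by 1.49 ± 0.09, while Wdr59, a GATOR2 subunit gene, rose (1.24 ± 0.10). Most genes listed for the integrated stress response went the other way. Of 15, 10 rose and 1 fell under IFN-gamma/LPS, and 11 rose and 0 fell under LPS/IL-4/IL-13, beside the same shares of all genes. The medians were 0.74 and 0.99. Ddit4 and Vldlr passed in no comparison with untreated cells, and the ATF4 target Sesn2, counted among the relatives, fell with LPS. Nupr1 rose by 3.64 ± 0.09 and 4.02 ± 0.09 with the treatments with LPS, and Ppp1r15a, also known as GADD34, by 3.21 ± 0.10 and 2.12 ± 0.10. Atf4 itself rose by 1.34 ± 0.09 and 1.51 ± 0.09.

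Of the 8 measured genes listed as stress kinases that GADD45 proteins act on, 2 rose and 4 fell under each treatment with LPS. Of all genes 23.6% and 28.4% (IFN-gamma/LPS) or 20.3% and 25.4% (LPS/IL-4/IL-13) did. The share that rose was thus near that of all genes. The 3 lists that follow stand beside the same shares. Map3k4, which GADD45 proteins bind, fell (-1.14 ± 0.12 under IFN-gamma/LPS and -1.10 ± 0.12 under LPS/IL-4/IL-13), as did Mapk14, the p38-alpha gene (-3.63 ± 0.08 and -2.68 ± 0.08), while Map2k4 rose (1.78 ± 0.12 and 2.32 ± 0.12). The next list held 15 genes of the CCR4-NOT and PAN deadenylases, with complex subunits and partners, called deadenylases below. Of these, 9 fell and 2 rose under IFN-gamma/LPS, and 8 fell and 2 rose under LPS/IL-4/IL-13. Fewer fell under LPS/IL-4/IL-13 when untreated array 1 was left out. Parn, the poly(A)-specific ribonuclease gene, fell (-1.55 ± 0.15 under IFN-gamma/LPS and -1.10 ± 0.15 under LPS/IL-4/IL-13). Among 12 genes of eIF4A, its partners and PDCD4 turnover, 3 rose and 6 fell under IFN-gamma/LPS, and 5 rose and 5 fell under LPS/IL-4/IL-13. Eif4ebp2, a translation repressor gene, fell by 2.52 ± 0.11 on the log2 scale under IFN-gamma/LPS. In that comparison Fbxw11, which encodes a subunit of the ligase that degrades PDCD4, rose (1.14 ± 0.09). Btrc, listed for PDCD4 degradation as well, fell (-0.39 ± 0.10). Proliferation genes had 12 of 19 down and 5 up under each treatment with LPS. Ccnd2 rose (4.85 ± 0.09 under IFN-gamma/LPS) while Ccna2 fell (-3.07 ± 0.14). Myc fell under IFN-gamma/LPS (-0.66 ± 0.11) and rose under LPS/IL-4/IL-13 (2.49 ± 0.11) and IL-4/IL-13 (1.08 ± 0.11).

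Under IL-4/IL-13 alone 7.83% of all named genes were called higher and 12.3% lower, fewer than with LPS, and the list counts stand beside those shares. IL-4/IL-13 lowered 8 of 20 FoxO genes and raised 1 (median -0.31, all genes 0.07), lowered 6 of 27 genes of the mTORC1 and AMPK branch and raised 1 (median -0.21), and lowered 6 of 19 proliferation genes and raised 1. Of the p53 genes 5 of 25 fell and 4 rose, and of the integrated stress response genes 1 of 15 fell and 3 rose. Among the relatives 2 of 9 rose and 0 fell, among the deadenylases 2 of 15 fell and 1 rose, among the stress kinases 2 of 8 fell and 0 rose, and among eIF4A and its partners 2 of 12 fell and 1 rose. Most of these counts fell when an array of either group was left out. Without untreated array 1, untreated array 2, IL-4/IL-13 array 1 or IL-4/IL-13 array 2, the called FoxO genes numbered 5, 6, 6 and 5, the mTORC1 and AMPK genes 3 each time, the proliferation genes 4, 3, 4 and 4, and the p53 genes 3, 3, 2 and 4. In that order the integrated stress response genes numbered 0, 2, 1 and 1, the relatives 0, 1, 1 and 0, the deadenylases 1, 1, 2 and 1, the eIF4A group 2 each time and the stress kinases 2 each time.

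**Figure D4:**
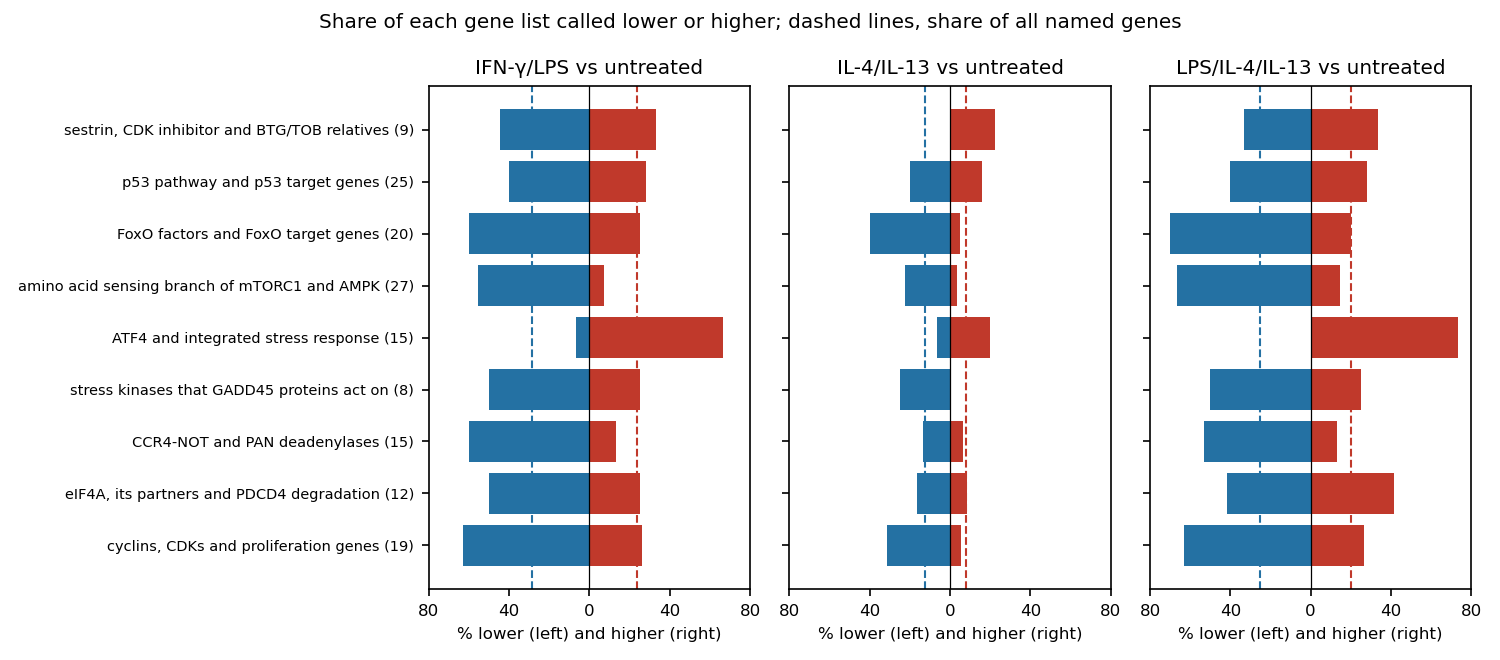
Percentage of each gene list (number of measured genes in brackets) called lower (blue, left) or higher (red, right) against untreated cells, with dashed lines at the percentage of all named genes called in that direction. Under LPS/IL-4/IL-13, 14 of 20 FoxO genes are lower and 11 of 15 integrated stress response genes are higher, beside 25.4% and 20.3% of all genes.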

How the data were processed

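Total RNA of 8 BMDM samples was measured on 8 Affymetrix mouse gene arrays. The authors deposited 1 value per probe set and array. Per the labels it is a MAS5 signal, but the deposited values (1.46 to 13.71) are on a log2 scale and were used as such. How the arrays were background-corrected and normalized is not given in the sources used here, and the 2 arrays per group limit the precision. Symbols are those of the platform annotation, possibly outdated, in which 21789 of 35556 probe sets had 1 symbol, 1621 several and 12146 none.

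All 8 arrays entered 1 linear model (limma 3.58.1, R 4.3.3: lmFit, contrasts, eBayes with a mean-variance trend, 4 residual and 7.55 prior degrees of freedom), tested on simulated data, and adjusted by Benjamini-Hochberg over 19938 genes in each of 6 comparisons. The members, gene lists and tests were chosen with earlier results of these data known. Named genes are the listed ones, the 3 nearest in fold change to Sesn1, Pdcd4 and Gadd45b, and per gene list at most 4 with the largest called changes and at most 2 not called. Foxo3, Sod2, Bcl6, Atf4, Btrc and the single marker genes whose values are given were added after their values were seen. Alternatives were a 2-fold minimum, each array left out, a filter on dim genes (lowest 40%), no trend, quantile normalization or median centring, all probe sets tested, probe sets averaged per gene, a block for replicate number, and separate fits of the 4 arrays compared. Promoter sequences came from RefSeq, matched by symbol for 9 of 9 genes.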

Additional observations from a re-analysis of the deposited data

How the results depend on the processing

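The deposited arrays came with 2 per group, so 1 array can decide a call. Counts of the list here include Sesn1 and Pdcd4. Their falls with LPS, against untreated cells or IL-4/IL-13, follow from how the list was made. These falls were called in every alternative, so they add to the counts without telling how stable the list is. With a minimum of 2-fold, the genes of the list that were called fell to 5 under IFN-gamma/LPS, 1 under IL-4/IL-13 and 6 under LPS/IL-4/IL-13. In the combination they fell to 2 compared with IFN-gamma/LPS and 7 compared with IL-4/IL-13. In IFN-gamma/LPS compared with IL-4/IL-13 they fell to 5. Over all genes the counts fell to 3395, 487 and 2768 against untreated cells (IFN-gamma/LPS, IL-4/IL-13, LPS/IL-4/IL-13). Between treatments they fell to 659 in the combination compared with IFN-gamma/LPS and 2224 in the combination compared with IL-4/IL-13. For IFN-gamma/LPS compared with IL-4/IL-13 the count was 3022. Fitted on its own 4 arrays, 2603 genes were called in the combination compared with IFN-gamma/LPS, beside 3926 in the fit of all arrays.

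With each array left out in turn, the genes of the list called numbered 7 to 8 under IFN-gamma/LPS, 5 to 7 under IL-4/IL-13, 8 to 9 under LPS/IL-4/IL-13, 5 to 6 in the combination compared with IFN-gamma/LPS, 9 to 9 in the combination compared with IL-4/IL-13 and 8 to 8 in IFN-gamma/LPS compared with IL-4/IL-13. A group left with 1 array is assumed to vary like the others. Over all genes the ranges were 7830 to 10762, 2063 to 4876, 6772 to 9101, 2741 to 4384, 6115 to 7319 and 7084 to 8629 in that order. The 4020 genes called under IL-4/IL-13 fell to 2063 without untreated array 1, 2380 without untreated array 2 and 2244 without IL-4/IL-13 array 2.

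Of the 918 refitted fold changes of the 9 genes, 1 changed sign, Gadd45a under IFN-gamma/LPS after quantile normalization (0.0169, limma adjusted p = 0.934). Of the rest, 30 lost their call, 5 gained one and 882 kept both sign and call. Of 459 refitted counts of gene lists, 57 moved by more than 1.5 times.

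Same-numbered arrays deviated from their group means with correlations between -0.358 and 0.217. Whether arrays with the same or with crossed numbers share a culture or a batch was not tested. With the replicate number as a block, 8, 7, 8, 5, 9 and 8 genes of the list and 10432, 3978, 9138, 3833, 7321 and 8307 of all genes were called in the order above. In a pairing chosen after seeing the data, with the numbers of the IFN-gamma/LPS arrays crossed, the counts were 8 and 10813 under IFN-gamma/LPS and 5 and 4404 in the combination compared with IFN-gamma/LPS.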
